A study of Mus musculus with 15 samples.

Results

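The genes described here encode 3 groups of mitochondrial proteins in mouse skeletal muscle: fusion proteins (Mfn1, Mfn2 and Opa1), fission proteins (Dnm1l, Fis1 and Mff) and mitophagy proteins (Pink1, Bnip3, Bnip3l and Fundc1). They were picked by gene symbol, and all 10 were found among the 22798 symbols of the count table and passed the filter on low counts that kept 17975 genes. RNA-seq libraries were made from total RNA of skeletal muscle, collected from C57BL/6 mice at an age of 12 months after an overnight fast under a normal diet. There were 3 libraries labelled CD47-KO (CD47-/- in the design text of the series), 6 from exercise mice and 6 from sedentary wild-type mice. Cd47 encodes a cell-surface receptor for thrombospondin-1 that also binds SIRPa on phagocytes. The labels give exercise mice no genotype of their own and do not say whether CD47-KO mice were trained. The labels leave out the training programme, the muscle, the sex of the mice and the way the deletion was made. Nothing in the labels ties each library to a separate mouse, so the p-values measure only the spread between these libraries, which may be technical. The comparisons of CD47-KO with sedentary and with exercise muscle share the CD47-KO libraries, and the comparison of exercise with sedentary muscle shares libraries with both.

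Mitochondria in a cell fuse and divide continually, and damaged ones are removed by mitophagy, a selective form of autophagy. Mitofusins on the outer membrane and OPA1 on the inner membrane join mitochondria, while the dynamin-related GTPase DRP1, the product of Dnm1l, is recruited to the outer membrane by adaptors such as MFF and FIS1 and constricts them. The kinase PINK1 accumulates on depolarised mitochondria and recruits the ubiquitin ligase Parkin, whereas BNIP3, BNIP3L (NIX) and FUNDC1 are outer-membrane receptors that bind LC3 family proteins directly. In muscle fibres mitochondria lie packed between contractile filaments, and Bnip3 is known as a gene induced by fasting, through FoxO3, and by low oxygen, through HIF-1.

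Library totals were 76005277 to 84364189 counts in CD47-KO, 54851831 to 77628546 in exercise and 50928458 to 70774311 in sedentary muscle, and a member had between 386 and 90102 counts in a library. Without a correction for GC content the targeted gene did not separate the groups. Cd47 stood at 11.5, 12.1 and 12.1 CPM (counts scaled to library size with TMM factors) in the libraries labelled CD47-KO. It stood at 10.8 to 15.7 CPM in exercise and at 11.4 to 16.4 CPM in sedentary libraries. Its log2 fold change for CD47-KO against sedentary was -0.26 ± 0.17 (SE; edgeR quasi-likelihood test, adjusted p = 0.295). Each library was also corrected for the GC content of the transcripts, a step described further on. Cd47 then stood at 7.87 to 8.19 CPM in CD47-KO, 11.6 to 16.1 in exercise and 11.5 to 19.1 in sedentary libraries, without overlap. The corrected log2 fold changes were -0.93 against sedentary and -0.84 against exercise muscle (edgeR, adjusted p = 0.00765 and 0.0119). Whether the table counts reads outside a deleted part of Cd47 was not tested, so the label is used as given. Mitochondrially encoded transcripts made up 18.1 to 19.2% of counts in CD47-KO, 4.49 to 12.5% in exercise and 4.77 to 9.21% in sedentary libraries 1 to 5, while sedentary library 6 had 18.2%. The 10 markers of skeletal muscle fibres summed to 102498 to 144064 CPM in CD47-KO, 157693 to 244612 CPM in exercise and 125122 to 218073 CPM in sedentary libraries, with none at 0 throughout a group, and 3 of the 10 (Acta1, Des and Ckm) were lower in CD47-KO than in sedentary muscle, where 8.75% of all genes were. After the correction for GC content none of these 3 passed (Acta1 stood at a log2 fold change of -0.49, edgeR, adjusted p = 0.169) and Myh1 was higher (1.28, adjusted p = 0.0350). The 5 fibroblast markers summed to 278 to 327 CPM in CD47-KO, 124 to 261 CPM in exercise and 106 to 606 CPM in sedentary libraries, and 2 of the 5 (Dcn and Pdgfra) were higher in CD47-KO than in sedentary muscle, where 11.9% of all genes were. Col1a1 and Col3a1 stood at -2.30 and -0.75 without passing, and after GC correction Pdgfra passed (0.90, edgeR, adjusted p = 0.0347) while Dcn stood at -0.11 (0.887). The 8 slow-fibre markers spread widely within groups, at 1044 to 7928 CPM in CD47-KO, 87.6 to 4507 CPM in exercise and 1440 to 24428 CPM in sedentary libraries. Of the other marker lists, 1 macrophage marker (Mrc1) was higher and 1 of Schwann cells and nerve (Mbp) and 1 of liver (Alb) lower in CD47-KO than in sedentary muscle, and no marker of slow fibres, adipocytes, endothelial or red blood cells passed. Liver markers summed to 0.128 to 0.229 CPM in CD47-KO, at most 10.7 CPM in exercise and 0.433 to 29.6 CPM in sedentary libraries, with Ttr at 0 in CD47-KO and Alb, Ahsg and Ttr at 0 in exercise libraries. The part of these values in the results below was not tested, and in whole muscle fewer cells of a type and less RNA per cell cannot be told apart.

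Compared per kilobase of exon sequence, Pink1 had the highest mean level of the 10 genes in every group, at 226 ± 47.0 CPM per kilobase in CD47-KO (SD, n = 3), 316 ± 102 in exercise and 299.9 ± 77.3 in sedentary libraries (SD, n = 6 each). Bnip3 and Mfn2 followed in each group. In CD47-KO the ranges of Pink1 and Bnip3 overlapped, and Bnip3 was the higher of the pair in libraries 2 and 3. In CD47-KO libraries Bnip3 stood at 200.2 ± 26.4 and Mfn2 at 76.4 ± 7.70 CPM per kilobase, with ranges that did not overlap. In exercise libraries Mfn2 averaged 128 ± 10.3 and Bnip3 107 ± 29.2, and in sedentary libraries Bnip3 averaged 108 ± 23.5 and Mfn2 99.7 ± 27.0, so the ranges of this pair overlapped in both. Fis1, Mfn1, Bnip3l and Opa1 took the next 4 places, between 7.15 and 40.7 CPM per kilobase on average over the groups. Dnm1l, Fundc1 and Mff had the lowest mean levels in exercise and sedentary muscle, at 3.43 to 4.96 CPM per kilobase, with overlapping ranges. In CD47-KO libraries Dnm1l stood at 12.9 ± 1.34 CPM per kilobase, beside Opa1 at 13.3 ± 0.752 with overlapping ranges, and Mff was lowest at 4.83 ± 0.434. The place of Mff depends on the length used, an exon union of 9757 bases over 16 annotated transcripts. Without division by length, Mff averaged 47.1 CPM in CD47-KO libraries and Fundc1 17.1 CPM. All these levels and overlaps are without the correction for GC content described further on. With it, and before division by length, Pink1 stood at 613 to 908 and Bnip3 at 347 to 433 CPM in CD47-KO libraries. Dnm1l then stood at 26.9 to 31.4 and Opa1 at 71.2 to 79.5 CPM, so the places in CD47-KO depend on the correction.

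**Figure D1:**
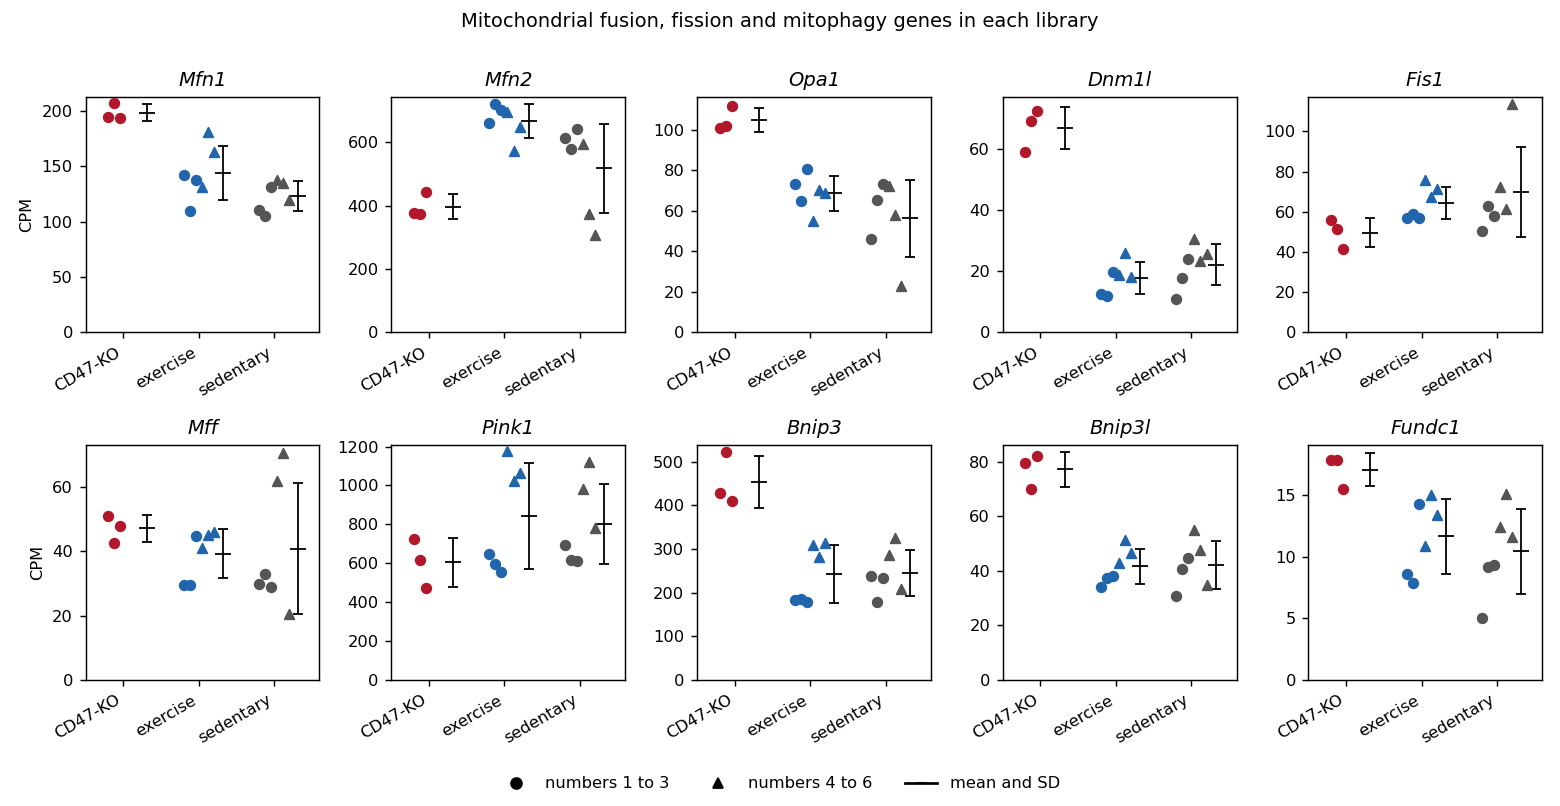
Levels of the 10 genes in each library, in CPM scaled with TMM factors (y axes, each starting at 0), for CD47-KO (red, n = 3), exercise (blue, n = 6) and sedentary (grey, n = 6) libraries, with circles for libraries numbered 1 to 3, triangles for those numbered 4 to 6 and bars for the mean and SD. All 3 CD47-KO points lie above every other point for Mfn1, Opa1, Dnm1l, Bnip3, Bnip3l and Fundc1, and exercise and sedentary points overlap in every panel.

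In libraries labelled CD47-KO, 5 of the 10 genes were higher than in sedentary muscle: Mfn1 and Opa1 of the fusion genes, Dnm1l of the fission genes, and Bnip3 and Bnip3l of the mitophagy genes. None was lower. Over all genes tested, 20.7% passed the same threshold (adjusted p under 0.05 over 17975 genes), 11.9% higher and 8.75% lower. The groups did not overlap, with CD47-KO higher, for those 5 genes and Fundc1, against 15.7% of all genes, and for no member with CD47-KO lower, against 10.3%. After each library was corrected for the GC content of the transcripts, none of the 10 genes passed (7.81% of all genes did), as described further on. Against exercise muscle 4 of the 10 passed, against 20.6% of all genes: Dnm1l, Bnip3 and Bnip3l were higher (12.2% of all genes) and Mfn2 was lower (8.34%).

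Mfn1, a mitofusin that tethers outer membranes (chromosome 3, 32529465 to 32579239 of GRCm38, plus strand), had 194, 207 and 194 CPM in CD47-KO libraries. Exercise libraries ran from 110.0 CPM through a median of 139.95 to 181 CPM, and sedentary libraries from 105 through 126 to 138 CPM. All CD47-KO values lay above all others, and exercise and sedentary values overlapped. The log2 fold change of CD47-KO against sedentary was 0.69 ± 0.17 (SE; edgeR, adjusted p = 0.00946), and against exercise it was 0.46 ± 0.17 (adjusted p = 0.0668). The adjusted p against sedentary muscle was 0.0650 without CD47-KO library 2, and against exercise muscle the gene passed without exercise library 5 (0.0236) or 6 (0.0453), with RLE factors (0.0383), with DESeq2 (0.00692) and with the number set of the libraries (1 to 3 or 4 to 6) as a term (0.00904).

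Mfn2, the other mitofusin, which also tethers mitochondria to the endoplasmic reticulum, had 376, 372 and 443 CPM in CD47-KO libraries. It lies on chromosome 4 at 147873599 to 147904704, minus strand. Exercise libraries ran from 572 through a median of 677 to 721 CPM, and sedentary libraries from 308 through 586 to 642 CPM. Every CD47-KO library was below every exercise library, whereas sedentary libraries 5 and 6, at 374 and 308 CPM, lay within and below the CD47-KO range. The log2 fold change of CD47-KO was -0.75 ± 0.23 against exercise (edgeR, adjusted p = 0.0314) and -0.38 ± 0.23 against sedentary muscle (adjusted p = 0.261). The call against exercise was lost without any 1 of the CD47-KO libraries (adjusted p 0.0825 to 0.151) and without exercise library 2, 3, 4 or 6 (0.0632 to 0.0711).

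The fold changes of the mitofusins had opposite signs, and the ratio of Mfn2 to Mfn1 per kilobase was taken within each library. It was 2.11, 2.27 and 2.69 in CD47-KO libraries, 3.73 to 7.71 with a median of 5.73 in exercise libraries, and 3.03 to 6.51 with a median of 5.40 in sedentary libraries. The highest CD47-KO ratio lay below the lowest ratio of the other groups, which was that of sedentary library 6. After GC correction the groups overlapped: the ratio was 3.48 to 4.38 in CD47-KO, 3.71 to 6.30 in exercise and 2.43 to 5.70 in sedentary libraries. Mfn2 has the higher GC content of the pair, at 54.2% against 45.6% in Mfn1.

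The other pairs also depended on this correction. The ratio of the receptor genes Bnip3 to Bnip3l was 8.49 to 12.7 in CD47-KO, 8.01 to 12.2 in exercise and 7.42 to 13.2 in sedentary libraries, with overlap throughout. After correction it was 12.1 to 17.95 in CD47-KO, 6.89 to 11.2 in exercise and 6.56 to 11.7 in sedentary libraries, so CD47-KO lay above the others. The ratio of the adaptor genes Mff to Fis1 was 0.146 to 0.202 in CD47-KO, above the 0.0882 to 0.138 of exercise libraries and overlapping the 0.0319 to 0.201 of sedentary libraries. After correction it was 0.0679 to 0.0948 in CD47-KO, below the 0.118 to 0.160 of exercise libraries, with 0.0382 to 0.199 in sedentary libraries. No ratio was given a test of its own.

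**Figure D2:**
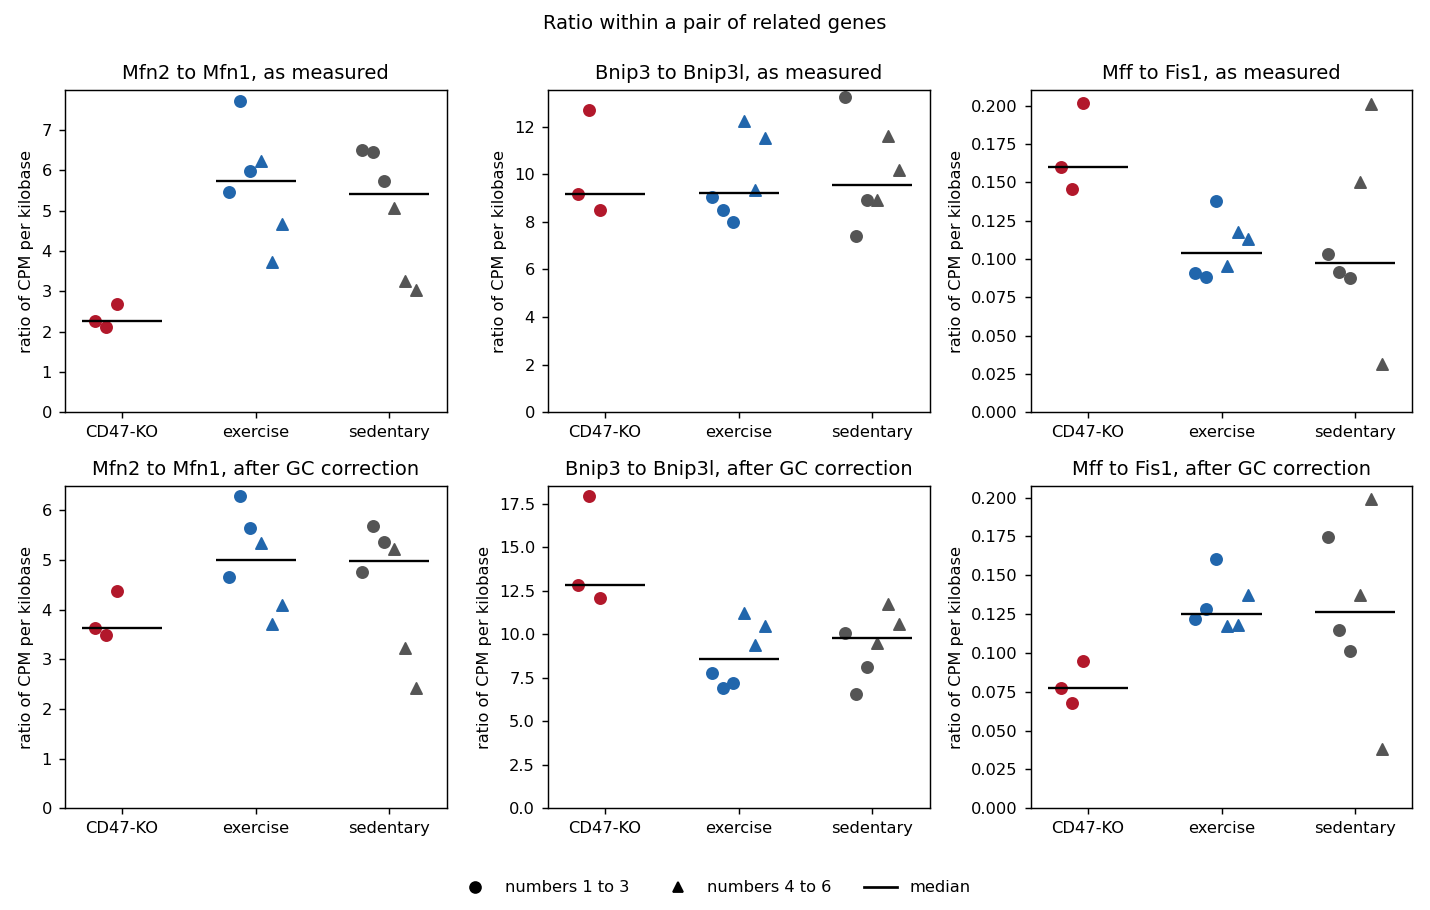
Ratios of Mfn2 to Mfn1 (left), Bnip3 to Bnip3l (middle) and Mff to Fis1 (right) in each library, from CPM per kilobase (y axes, each starting at 0), as measured (top) and after GC correction (bottom), with lines at the group medians and circles and triangles for libraries numbered 1 to 3 and 4 to 6. The 3 CD47-KO ratios of Mfn2 to Mfn1, from 2.11 to 2.69, lie below all others as measured and overlap them after correction, while those of Bnip3 to Bnip3l overlap the others as measured and lie above them after correction.

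Opa1, the GTPase that fuses inner membranes and shapes cristae (chromosome 16, 29579334 to 29654884, plus strand), had 101, 102 and 112 CPM in CD47-KO libraries. Exercise libraries ran from 54.9 through a median of 69.4 to 80.7 CPM, and sedentary libraries from 23.1 through 61.5 to 73.3 CPM. CD47-KO values were again above all others, and sedentary library 6 was lowest. The log2 fold change was 0.90 ± 0.26 against sedentary (edgeR, adjusted p = 0.0233) and 0.61 ± 0.26 against exercise muscle (adjusted p = 0.117). The call against sedentary muscle was lost without CD47-KO library 2 (adjusted p = 0.0829), CD47-KO library 3 (0.0725) or sedentary library 1 (0.0529), and when only those groups entered the fit (0.0628), while against exercise the same restriction brought the adjusted p to 0.00405.

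Dnm1l, the gene of the fission GTPase DRP1, showed the largest difference of the 10 genes before correction for GC content. The CD47-KO libraries held 59.1, 69.2 and 72.4 CPM of it. Exercise libraries ran from 11.9 through a median of 18.6 to 25.9 CPM, and sedentary libraries from 11.1 through 23.8 to 30.4 CPM. The lowest CD47-KO library stood well above the highest of the other 12. The level in CD47-KO was 3.02-fold that in sedentary muscle (log2 fold change 1.60 ± 0.27, edgeR, adjusted p = 0.000742) and 3.74-fold that in exercise muscle (1.90 ± 0.27, adjusted p = 0.000146). After GC correction these values were 0.26 and 0.45 and did not pass, and Bnip3, Mff and Fundc1 lay farther from 0 in both comparisons. Dnm1l lies on chromosome 16 at 16312230 to 16358959, minus strand. It shares 243 bases of exon sequence with an antisense transcript, Gm49521, on the opposite strand, and whether reads were counted by strand is not stated in the sources used here.

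The adaptors that bring DRP1 to mitochondria did not pass the threshold in any comparison of the fit to all 15 libraries. Mff had 50.8, 42.5 and 47.9 CPM in CD47-KO, 29.6 to 45.9 CPM in exercise and 20.6 to 70.7 CPM in sedentary libraries, with a log2 fold change of 0.21 ± 0.32 against sedentary (edgeR, adjusted p = 0.709) and 0.26 ± 0.32 against exercise muscle (adjusted p = 0.624). Its call and direction depended on the fit: with libraries numbered 1 to 3 alone it was higher, by 0.70 and 0.54 (edgeR, adjusted p = 0.0130 and 0.0398), and with a correction by the GC content of the longest transcript it was lower, at -1.40 and -1.51 (0.00700 and 0.00374). Mff (chromosome 1, 82724890 to 82752394, plus strand) shares 195 bases of exon sequence with C430014B12Rik on the opposite strand. Fis1 (chromosome 5, 136953275 to 136966234, plus strand) had 55.9, 51.3 and 41.8 CPM in CD47-KO, 56.9 to 75.6 CPM in exercise and 50.5 to 113 CPM in sedentary libraries. Its CD47-KO values lay just below all exercise values and overlapped the sedentary ones, with a log2 fold change of -0.49 ± 0.23 against sedentary (adjusted p = 0.144) and -0.38 ± 0.23 against exercise muscle (adjusted p = 0.270). With Mfn2, Fis1 was 1 of 2 members whose groups did not overlap with CD47-KO lower than exercise, against 14.1% of all genes, and 6 members did not overlap with CD47-KO higher than exercise, against 17.5%.

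Among the mitophagy genes, Bnip3 had 428, 522 and 410.4 CPM in CD47-KO libraries. Exercise libraries ran from 179 through a median of 234 to 314 CPM, and sedentary libraries from 177 through 237 to 325 CPM. No library of the other groups reached the CD47-KO values. The log2 fold change was 0.89 ± 0.24 against sedentary (edgeR, adjusted p = 0.0146) and 0.91 ± 0.24 against exercise muscle (adjusted p = 0.0124), and both calls were lost without CD47-KO library 2, with adjusted p of 0.0999 and 0.0895. The gene lies on chromosome 7 at 138890836 to 138909519 of GRCm38, minus strand. An antisense transcript, Gm45507, overlaps 504 bases of its exons.

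Because Bnip3 is a known target of HIF-1 and had the largest positive difference of these genes after correction for GC content, its promoter is shown: 300 bases from RefSeq (GRCm38.p6, chr7:138909457-138909756, minus strand), from 250 before to 50 after the transcript start. The capitals mark the letters CACGTG, which read the same on both strands. They contain ACGTG, a form of the core that HIF factors bind, once on each strand. Other forms of that core were not searched for or marked.
Bnip3: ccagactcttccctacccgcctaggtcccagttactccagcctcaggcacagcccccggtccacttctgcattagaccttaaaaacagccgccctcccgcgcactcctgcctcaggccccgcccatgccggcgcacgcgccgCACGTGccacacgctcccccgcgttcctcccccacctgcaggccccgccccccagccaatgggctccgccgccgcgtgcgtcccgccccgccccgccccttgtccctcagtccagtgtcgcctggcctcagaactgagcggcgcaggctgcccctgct
The letters start at base 143 of the window. Searched on both strands, CACGTG was found in 1 of the 9 members with a promoter in the table, against 7.15% of 32851 promoters, and ACGTG in 2 of the 9 (Bnip3 and Mfn2), against 19.6%. The FoxO core GTAAACA (3.65% of promoters) and the estrogen-related receptor letters TCAAGGTCA (0.423%) were found in none of the 9. These are matches of letters and say nothing of binding in this muscle.

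Bnip3l, whose product NIX is a mitophagy receptor related to BNIP3 (chromosome 14, 66985239 to 67008877, minus strand), had 79.5, 70.05 and 82.3 CPM in CD47-KO libraries. Exercise libraries ran from 34.2 through a median of 40.5 to 51.5 CPM, and sedentary libraries from 30.8 through 42.7 to 54.9 CPM. CD47-KO values were above all others. The log2 fold change was 0.87 ± 0.19 against sedentary (edgeR, adjusted p = 0.00389) and 0.89 ± 0.19 against exercise muscle (adjusted p = 0.00314), and, like Dnm1l, it passed the threshold whichever library was left out. A transcribed pseudogene, Bnip3l-ps, has a row of its own in the table, and how reads matching both were counted is not known.

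Fundc1, a receptor linked to mitophagy in low oxygen (chromosome X, 17556564 to 17572325, minus strand), had 17.8, 17.9 and 15.5 CPM in CD47-KO, 7.84 to 15.03 CPM in exercise and 5.05 to 15.1 CPM in sedentary libraries. The groups did not overlap, yet the log2 fold changes of 0.71 ± 0.28 against sedentary (edgeR, adjusted p = 0.0831) and 0.55 ± 0.28 against exercise muscle (adjusted p = 0.184) missed the threshold. The first passed without sedentary library 5 (adjusted p = 0.0334), and with the number set of the libraries as a term both passed, at 1.02 ± 0.24 (0.00530) and 0.83 ± 0.24 (0.0158). After GC correction both values were below 0, as given further on. Pink1, the kinase upstream of Parkin (chromosome 4, 138313409 to 138326307, minus strand), had 725, 615 and 474 CPM in CD47-KO, 553 to 1175 CPM in exercise and 613 to 1119 CPM in sedentary libraries. Its log2 fold changes were -0.41 ± 0.29 against sedentary (adjusted p = 0.361) and -0.48 ± 0.29 against exercise muscle (adjusted p = 0.271), with overlapping groups.

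These differences followed the base composition of the transcripts. The 7 members with 40.6 to 47.1% G and C in their transcripts were all above 0 in both CD47-KO comparisons. Their log2 fold changes were 0.21 to 1.60 against sedentary and 0.26 to 1.90 against exercise muscle. The 3 members with 54.2 to 57.7% (Mfn2, Fis1 and Pink1) were all below 0. The same held across the transcriptome: over 10396 genes the fold change of CD47-KO against sedentary fell with GC content (Spearman's rho -0.670, a description across genes that share the same libraries), with a median of 1.28 in the tenth of genes poorest in GC and -0.58 in the richest. For exercise against sedentary muscle rho was 0.0186.

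The contrast is visible in the sequences of Dnm1l, with the lowest GC content of the 10 genes (40.6%), and Pink1, with the highest (57.7%). The 120 bases at the middle of each longest coding sequence (GENCODE M21, GRCm38), starting at coding base 1015 in Dnm1l and 811 in Pink1, are shown with every G and C in capitals.
Dnm1l: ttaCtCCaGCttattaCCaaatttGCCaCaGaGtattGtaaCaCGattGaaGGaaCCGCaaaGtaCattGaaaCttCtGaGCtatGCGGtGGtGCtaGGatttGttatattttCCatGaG
Pink1: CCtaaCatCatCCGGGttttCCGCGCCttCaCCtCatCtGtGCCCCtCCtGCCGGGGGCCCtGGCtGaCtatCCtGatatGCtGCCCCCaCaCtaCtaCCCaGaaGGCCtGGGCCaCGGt
G and C account for 47 of the 120 bases in Dnm1l and 75 in Pink1.

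**Figure D3:**
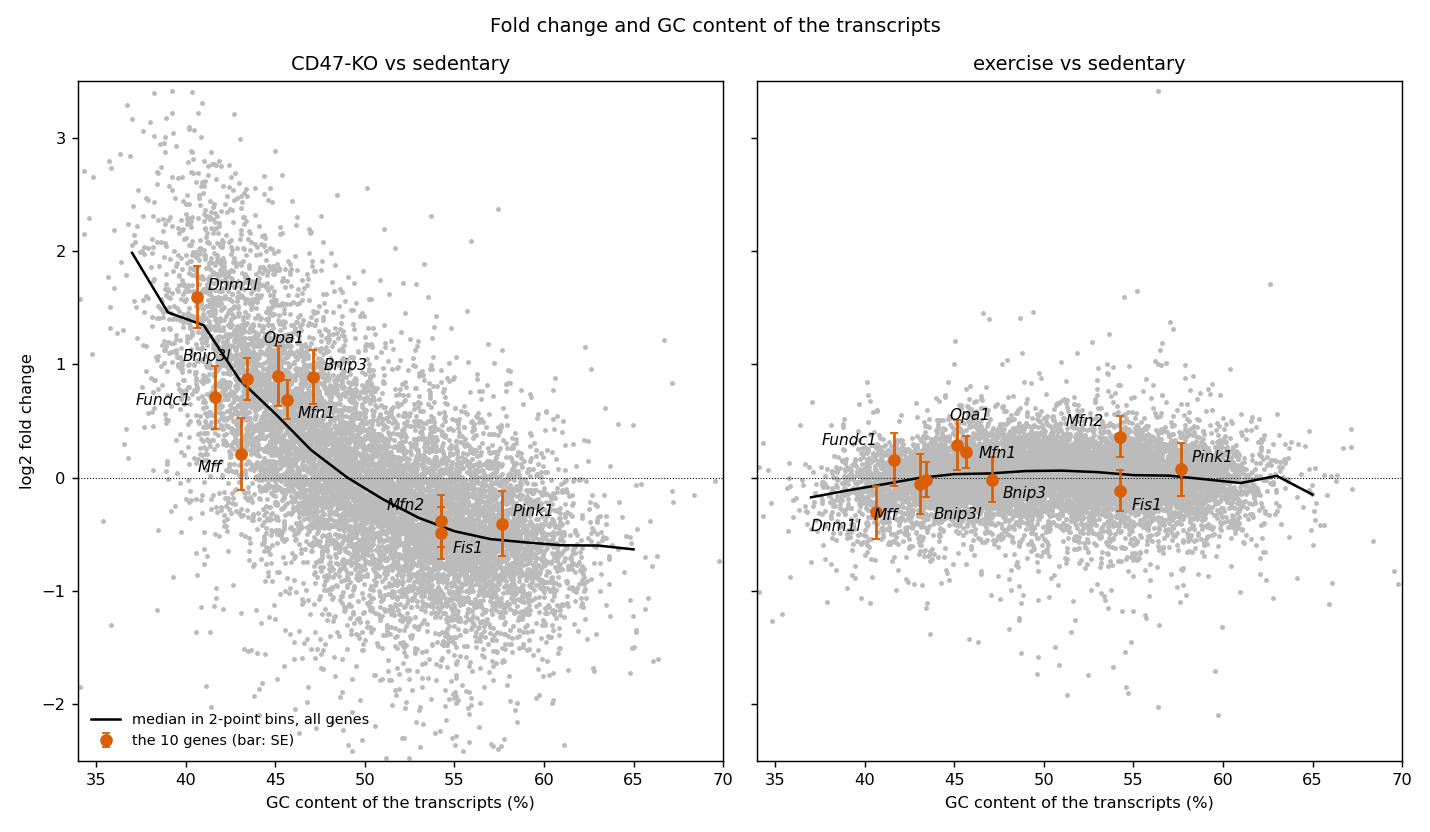
Log2 fold change (y axis) against GC content of the transcripts in percent (x axis) for CD47-KO against sedentary (left) and exercise against sedentary (right), with the 10 genes in orange (bars, SE), other genes in grey and the median of all genes in bins of 2 percentage points as a line. Some grey points lie outside the axes. In the left panel the line falls with GC content and the 10 genes fall with it, from Dnm1l at 1.60 to Fis1 at -0.49, whereas the line in the right panel stays near 0.

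Set beside genes within 1 percentage point of the same GC content, most members were near the median. Dnm1l was at 1.60 with its 435 neighbours at a median of 1.37, Bnip3l at 0.87 with 0.80, Mfn1 at 0.69 with 0.47, Mfn2 at -0.38 with -0.43 and Fis1 at -0.49 with -0.43. Bnip3 lay above its neighbours, at 0.89 with a median of 0.23, and Opa1 at 0.90 with 0.53. Mff and Fundc1 lay below theirs, at 0.21 with 0.85 and at 0.71 with 1.19. Pink1 stood at -0.41 with a median of -0.55.

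With each library corrected for GC content, none of the 10 genes passed the threshold against sedentary muscle (7.81% of all genes did, 3.89% higher and 3.92% lower). Dnm1l then had a log2 fold change of 0.26 ± 0.17 (edgeR, adjusted p = 0.420), Bnip3l 0.03 ± 0.15 (0.947), Mfn1 0.20 ± 0.17 (0.557) and Opa1 0.36 ± 0.23 (0.416). Bnip3 was left with the largest positive value, 0.61 ± 0.25 (adjusted p = 0.155), Mff had the most negative, -0.67 ± 0.28 (0.164), and Fundc1 stood at -0.44 ± 0.21 (0.215). Cd47 stood at -0.93 ± 0.19 (adjusted p = 0.00765), where it was -0.26 without the correction. Against exercise muscle Fundc1 passed with CD47-KO lower, at -0.71 ± 0.21 (adjusted p = 0.0459), while 8.04% of all genes passed, 4.16% higher and 3.89% lower. Its uncorrected value was above 0, at 0.55, so its direction depends on the correction. Mfn2 no longer passed (-0.35 ± 0.22, adjusted p = 0.375), and Bnip3 stood at 0.64 ± 0.25 (0.131). The source of the trend with GC content was not tested, and with all 3 CD47-KO libraries on 1 side of it, the trend and the genotype cannot be told apart.

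**Figure D4:**
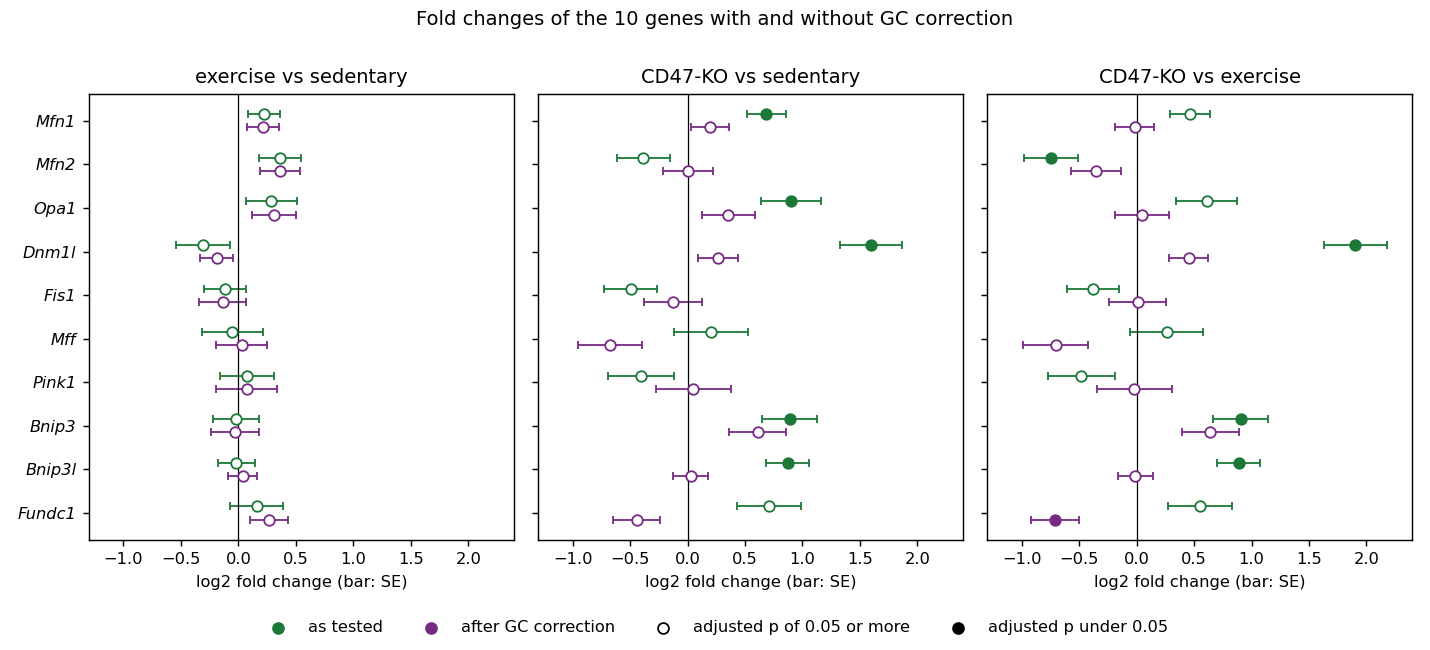
Log2 fold changes of the 10 genes (x axes; bars, SE) in the 3 comparisons, as tested (green) and after GC correction (purple), with filled symbols for an adjusted p under 0.05 (edgeR). Against sedentary muscle 5 green symbols are filled for CD47-KO and no purple one, against exercise muscle 4 green symbols and the purple one of Fundc1, and for exercise against sedentary muscle none.

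All CD47-KO libraries carry numbers 1 to 3, so the comparison was also made with the other libraries of those numbers alone. Against sedentary libraries 1 to 3, 8 members passed the threshold (33% of the 16932 genes tested did), 7 higher (19.2%) and Mfn2 lower (13.8%). Mff and Fundc1 joined the higher ones, at 0.70 ± 0.17 (edgeR, adjusted p = 0.0130) and 1.20 ± 0.28 (0.00926). With GC correction of the same libraries both turned below 0, at -0.39 and -0.21, and 1 member passed, against 17.2% of all genes: Bnip3, at 0.87 ± 0.16 (adjusted p = 0.00661). Against exercise libraries 1 to 3, 8 members passed as well (32.3% of all genes), 7 higher (19.2%) and Mfn2 lower (13.1%), and 2 passed with GC correction (18.1%). These were Bnip3, higher at 1.12 ± 0.17 (adjusted p = 0.00187), and Mff, lower at -0.53 ± 0.16 (0.0484). In the fit to all 15 libraries, GC correction had left Bnip3 at 0.61 against sedentary and 0.64 against exercise muscle. Correcting the same 15 libraries by the GC content of the longest transcript alone instead placed Bnip3 at -0.12 and -0.15 (edgeR, adjusted p = 0.819 and 0.761). Its direction in that fit thus depends on which transcript stands for the gene. The longest-transcript correction was not run on libraries 1 to 3 alone.

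No difference larger than the spread between libraries was found for exercise against sedentary muscle in the 10 genes. No member passed the threshold, and 0% of the 17975 genes did (edgeR; 665 genes, 3.7%, had an unadjusted p under 0.05, and DESeq2 called 9 genes, none of them a member). All 10 genes overlapped between the groups, where 0.1% of all genes did not overlap with exercise higher and 0.0612% with exercise lower. The smallest p belonged to Mfn2, with a log2 fold change of 0.36 ± 0.18 (unadjusted p = 0.0664, adjusted p = 1.00). Opa1 stood at 0.29 ± 0.22, Mfn1 at 0.22 ± 0.14, Fundc1 at 0.16 and Pink1 at 0.07. Dnm1l was lowest, at -0.31 ± 0.23, followed by Fis1 at -0.11, Mff at -0.05, and Bnip3 and Bnip3l at -0.02 each. Standard errors of the 10 differences ran from 0.14 to 0.26 on the log2 scale.

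The 12 exercise and sedentary libraries also differed by number. Between numbers 1 to 3 and 4 to 6, 31.4% of the 15571 genes tested in these libraries passed, and 2 of the 10 members did. Pink1 had 553 to 695 CPM in the 6 libraries numbered 1 to 3 and 783 to 1175 CPM in the 6 numbered 4 to 6, without overlap, a log2 difference of -0.71 ± 0.13 (edgeR, adjusted p = 0.00198). Bnip3 had 177 to 239 CPM in numbers 1 to 3 and 209 to 325 CPM in numbers 4 to 6, with overlap, at -0.52 ± 0.14 (adjusted p = 0.0136). What the numbers stand for is not given in the labels, and exercise libraries 4 to 6 carry other numbers (6 to 8) in their descriptions. Within numbers 1 to 3 the difference of exercise from sedentary was 0.18 ± 0.22 for Mfn2, within numbers 4 to 6 it was 0.56 ± 0.23 (adjusted p = 0.614), and the difference between these values was 0.38 ± 0.32 (edgeR, adjusted p = 0.969). No member passed a test of that difference, nor did any gene (0%; 4.58% had an unadjusted p under 0.05).

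Other genes of the same pathways were read from 7 lists, of which 73 genes were tested. In CD47-KO against sedentary muscle 13 of the 73 were higher (11.9% of all genes) and 10 lower (8.75%), with a median log2 fold change of -0.08 against -0.11 over all genes. After GC correction 7 were higher (3.89% of all genes) and 5 lower (3.92%), and 7 genes passed in both fits with the same direction, which 5.37% of all genes did. The 5 others that passed after correction alone were named after their values were seen: Miga2, a helper of outer membrane fusion, was higher (0.68, edgeR, adjusted p = 0.0363), while Mtch2 (-0.81, 0.0448), the transport gene Rhot1 (-0.70, 0.0185), the channel gene Vdac3 (-1.41, 0.000272) and Fundc2, a paralog of Fundc1 (-1.50, 0.000277), were lower. Before correction these 5 stood between -0.22 and 0.43.

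Among genes for OPA1 processing and inner membrane shape, 1 of 14 was higher and 2 were lower. Yme1l1, the inner-membrane protease that cleaves OPA1, had 77.8 to 80.3 CPM in CD47-KO and 8.14 to 22.6 CPM in sedentary libraries, a log2 fold change of 2.30 ± 0.26 (edgeR, adjusted p = 3.73e-05). It was 0.60 ± 0.14 after GC correction (adjusted p = 0.0163). The scaffold gene Phb (-0.75 ± 0.21) and Opa3 (-0.64 ± 0.19) were lower, and neither passed after correction. Of 4 helpers of outer membrane fusion, Miga1 (1.28 ± 0.22) and Slc25a46 (1.49 ± 0.28) were higher, and Miga1 was also higher after correction (0.88 ± 0.20, adjusted p = 0.0130).

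Of 14 fission adaptors and regulators, 1 was higher and 2 lower. Tbc1d15, a Rab GTPase-activating protein that binds FIS1, had 54.5 to 94.2 CPM in CD47-KO and 4.91 to 20.8 CPM in sedentary libraries, at 2.47 ± 0.39 (edgeR, adjusted p = 0.000458) and 1.21 ± 0.28 after correction (0.0148). The ligase gene Mul1 (-0.75 ± 0.15) and the DRP1 receptor gene Mief2 (-0.71 ± 0.18) were lower before correction alone. Of 5 genes of mitochondrial transport along microtubules, Armcx3 (1.29 ± 0.23) was higher and Rhot2 (-0.57 ± 0.19) and Trak1 (-0.69 ± 0.24) lower, none of them after correction.

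Among 16 genes of the PINK1 and Parkin route, 3 were higher and 2 lower. Tomm70a, an import receptor of the outer membrane, was higher (1.16 ± 0.19, edgeR, adjusted p = 0.000597) but stood at -0.52 ± 0.24 after GC correction (adjusted p = 0.203). The deubiquitinase gene Usp15 was higher (1.79 ± 0.31) and Park7, whose product DJ-1 protects against oxidative stress, was lower (-1.04 ± 0.20), and neither passed after correction. Tomm7, which stabilises PINK1 on the outer membrane and was named after its values were seen, was lower in both fits, at -1.55 ± 0.44 and -2.33 ± 0.46 (adjusted p = 0.0191 and 0.00632). Of 5 mitophagy cargo adaptors and their kinase, Tax1bp1 was higher at 133 to 169 CPM in CD47-KO against 18.8 to 47.0 CPM in sedentary libraries, and Tbk1, the kinase that phosphorylates such adaptors, at 16.96 to 26.5 against 4.50 to 10.4 CPM. Both remained higher after correction, at 0.86 ± 0.17 and 0.99 ± 0.21 (adjusted p = 0.00728 and 0.0102).

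Of 15 genes of receptor-mediated mitophagy, 3 were higher and 2 lower. Ulk1, the kinase that starts autophagy and phosphorylates FUNDC1, was higher at 0.94 ± 0.25 (edgeR, adjusted p = 0.0151) and at 1.42 ± 0.28 after correction (0.00620). Fkbp8, a mitophagy receptor, was lower (-1.06 ± 0.17) and Csnk2a1, a subunit of casein kinase 2, higher (0.75 ± 0.20), neither of them after correction. In CD47-KO against exercise muscle 10 of the 73 genes were higher (12.2% of all genes) and 15 lower (8.34%), and after correction 7 were higher (4.16%) and 9 lower (3.89%). In both fits with the same direction 8 passed, against 5.17% of all genes. In exercise against sedentary muscle none of the 73 passed, and 51 lay above 0 where 8293 of all 17975 genes did.

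**Figure D5:**
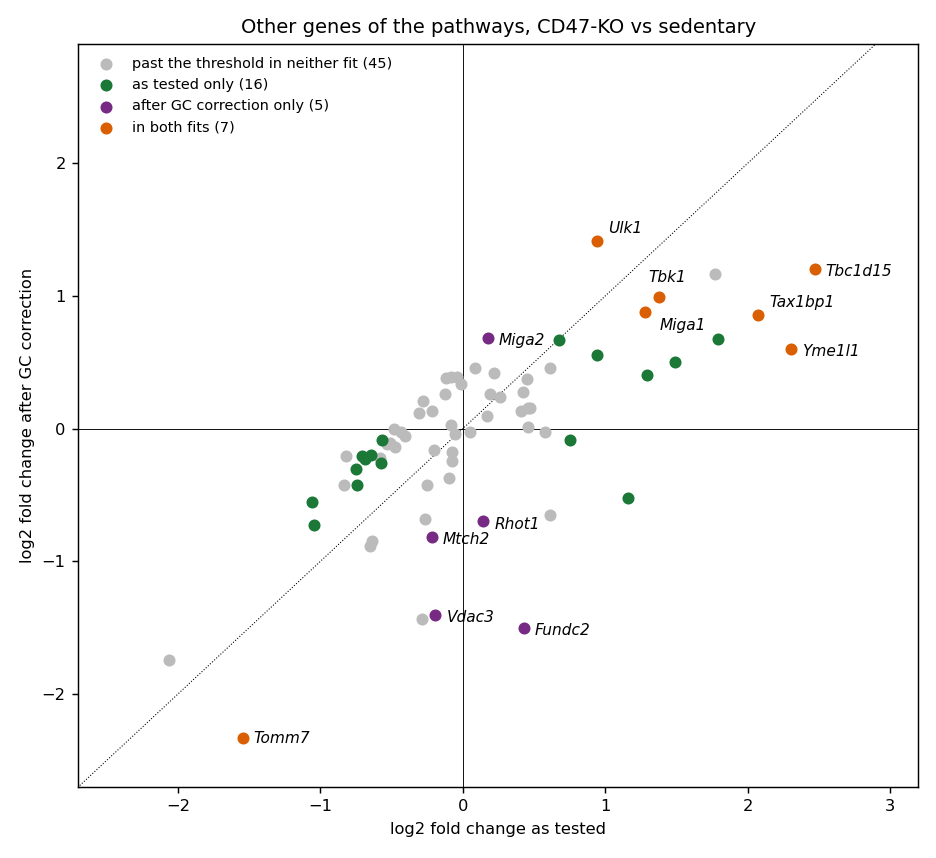
Log2 fold changes of the 73 other pathway genes in CD47-KO against sedentary muscle, as tested (x axis) and after GC correction (y axis), coloured by the fit in which the adjusted p was under 0.05, with names for genes past it after correction and a dotted line where both values are equal. The 7 genes past it in both fits (orange) hold Tbc1d15, Tax1bp1, Yme1l1, Tbk1, Miga1 and Ulk1 at the upper right and Tomm7 at the lower left.

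The profile of each gene over the 15 libraries was compared with those of all others as the root mean square difference of centred log2 CPM. Mfn1 was closest to Hspa9 (0.116), Mfn2 to Phf13 (0.171), Dnm1l to Slk (0.175) and Fis1 to Rpl24 (0.0904). Mff was closest to Prdx1 (0.179), Pink1 to Eif1b (0.156), Bnip3 to Elp4 (0.155), Bnip3l to Tbce (0.123) and Fundc1 to Smim13 (0.166). Within the 10 genes the closest pairs were Mfn1 with Bnip3l (0.233) and Bnip3 with Bnip3l (0.250), and the farthest was Mfn2 with Dnm1l (1.13). All 15 points are shared libraries, and the closeness is a description with no test. The profiles were not corrected for GC content, which was 54.2% in Mfn2 and 40.6% in Dnm1l. The part of GC content in these distances was not tested.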

How the data were processed

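The authors deposited a table of gene counts for 22798 symbols in 15 libraries, and every column was matched to a sample. The tools were Trimmomatic 0.30, HISAT2 2.0.1 and HTSeq 0.6.1 with the build GRCm38, per the submitters' processing notes, which name no strand setting. Of the deposited count values from 1 to 15, 32.1 to 33.6% were multiples of 4 in CD47-KO libraries. The share was 43.6 to 50.2% in exercise and 41.7 to 48.5% in sedentary libraries, so CD47-KO lay below all others. Single reads may therefore not be what was counted, and the reason was not tested. The difference in this share and the genotype cannot be told apart. Libraries of 1 group differed beyond sampling noise (lowest chi-square per degree of freedom 72.0, sedentary 4 and 5).

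Counts were filtered with filterByExpr, scaled by TMM and tested with edgeR 4.0.16 (R 4.3.3) in 1 robust quasi-likelihood fit of all 15 libraries, with Benjamini-Hochberg adjustment over 17975 genes, a threshold of 0.05 and a prior count of 2. Standard errors come from the fold change and its F statistic. CPM per kilobase uses the exon union of GENCODE M21 (GRCm38), which holds 22716 of the symbols once, 43 more than once and not the other 39. The GC correction fits a lowess curve (span 0.3) of each library's deviation from the mean log2 CPM on GC content. The curve serves as an offset. GC content is that of all annotated transcripts of a gene together, so bases shared by several transcripts count more than once. Trends, profiles and neighbours used genes with a mean log2 CPM of at least 1. Promoters are from RefSeq (GRCm38.p6). The scripts were tested on simulated data.

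The 10 genes, the 7 pathway lists (of 78 genes, 74 were in the table, without Micos10, Micos13, Marchf5 and Calcoco2), the marker lists, the rules and the tests were chosen with earlier results of these data known. Named pathway genes are up to 3 of each list with the smallest p past the threshold in a comparison, and each member's closest profile is the gene with the smallest difference among those whose SD over libraries was not far below its own.

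Replicate numbers come from the titles. The deviations of same-numbered exercise and sedentary libraries correlated in all 6 pairs (0.273 to 0.539, median 0.408). Libraries with other numbers of the same set correlated at a median of 0.366 (0.0487 to 0.492), and those of the other set at -0.411. These values follow the number set and do not show a pairing by number, so the replicate block is only an alternative. For CD47-KO the correlations were -0.0925 to 0.309 with exercise and -0.192 to 0.208 with sedentary libraries, so these share only a number. The alternatives were RLE factors, TMM without mitochondrially encoded genes and clone-named symbols, DESeq2 1.42.0, limma-voom (limma 3.58.1), other filters, no robust dispersion, corrections for GC content, for GC content and length, and for the longest transcript, the replicate block, the number set, only the groups compared, and fits without each library. The longest-transcript correction and numbers 1 to 3 with GC correction were added after the data were seen. The gene closest in profile to Opa1 is not reported here.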

Additional observations from a re-analysis of the deposited data

Results flagged for a closer look

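Fis1 stood at 113 CPM in sedentary library 6, while the nearest other sedentary library had 72.4 CPM. The gap is 0.653 of the range of the group, above the critical value of 0.625 for 6 libraries. In all, 22 groups of 6 libraries were examined (the 10 genes and Cd47 in exercise and in sedentary muscle), 1 was marked, and chance marks about 1 in 20 groups. The same library had the lowest sedentary values of Mfn2 (308 CPM), Opa1 (23.1 CPM) and Mff (20.6 CPM), the lowest TMM factor (0.795) and the highest sedentary share of mitochondrially encoded counts (18.2%). Without it, the log2 fold change of Fis1 in exercise against sedentary muscle was 0.06, against -0.11 with it, and neither passed the threshold.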

How the results depend on the processing

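For exercise against sedentary muscle no member passed under any alternative run; over all genes DESeq2 called 9 and the number set as a term 1. Members called in CD47-KO against sedentary muscle (5) numbered 0 with correction for GC content and for GC content and length, 2 with the longest transcript (both lower), 1 with the replicate block and GC correction, 8 with numbers 1 to 3 only and 1 with these and GC correction, and 2 to 6 when 1 library was left out (2 without CD47-KO library 2). The genes called (3719) numbered 1404, 1333, 1610, 2271 and, with numbers 1 to 3 only, 5588 in the same order, and 2178 to 3881 without 1 library (2361, 2245 and 2178 without CD47-KO library 1, 2 or 3). Members called against exercise muscle (4) numbered 1 with GC correction, 2 with GC content and length, 2 with the block and GC correction, 8 with numbers 1 to 3 only, 2 with these and GC correction, 7 with only the groups compared, and 2 to 5 without 1 library. The genes called (3698) numbered 1446, 1496, 1631 (longest transcript) and 2400 (block with GC correction), and 2292 to 3554 without 1 library. The cause of these changes was not tested.

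For called values, and others past the threshold under the alternative, directions turned for CD47-KO against sedentary muscle with the longest transcript: Mff -1.40 (edgeR, adjusted p = 0.00700), Bnip3 -0.12, Bnip3l -0.085 and Fundc1 -0.69 (0.0329). Against exercise muscle they turned for Mff (-1.51 with the longest transcript, -0.53 with numbers 1 to 3 and GC correction), Bnip3 (-0.15, longest transcript), Bnip3l (-0.011 with GC correction, -0.011 with GC content and length, -0.13 with the longest transcript) and Fundc1 (-0.71, -0.66 and -0.98 in the same order). Values that were not called turned too. Against sedentary muscle they stood, with GC correction, GC content and length, and the block with GC correction, at -0.44, -0.38 and -0.28 for Fundc1, at -0.67, -0.84 and -0.44 for Mff and at 0.051, 0.096 and 0.54 for Pink1. Fis1 reached 0.20 in the last of these. Against exercise muscle Mff stood at -0.70, -0.86 and -0.55 in the same order. Cd47 passed the threshold against sedentary muscle with GC correction (-0.93), GC content and length (-1.03), the longest transcript (-1.20), the block with GC correction (-0.83) and numbers 1 to 3 with GC correction (-0.90), and ran from -0.318 to -0.155 without 1 library.

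The replicate block changed no call between exercise and sedentary muscle. It matches CD47-KO to the other groups by a number that is not known to mark a shared batch. With it 6 members and 4842 genes passed for CD47-KO against sedentary muscle (Fundc1 gained, at 1.07) and 6 members and 4980 genes against exercise muscle (Mfn1 gained, at 0.60, and Fundc1, at 0.88). With the block and GC correction Bnip3 was called higher, by 0.94 against sedentary (edgeR, adjusted p = 0.00693) and by 1.00 against exercise muscle (0.00507), where Dnm1l was also higher, by 0.56 (0.0227). The lowest count of a member in a library was 386, and the precision is set by the spread between libraries, with 3 in CD47-KO.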
